A study of Mus musculus with 4 samples.

Results

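The sites described here are the p63 peaks of wild-type mouse epidermis that lay at the end of a gene and were met by a peak in p63 alphaKO epidermis. They were selected on measured values, the presence of a peak in both libraries: a wild-type (WT) peak was taken when 1 bp or more of it overlapped an alphaKO peak and its summit was no more than 1 kb from the start or end of a protein-coding gene in RefSeq GRCm38.p6, the assembly of mm10. The rule took 804 of the 10616 WT peaks, and 801 of the 14593 alphaKO peaks were their partners. Overlap is therefore a property of the choice and not a finding.

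p63 was mapped by chromatin immunoprecipitation and sequencing (ChIP-seq) with the antibody EPR570 in epidermis freed from the back skin of newborn mice (postnatal day 0), cross-linked in 1% formaldehyde. The WT group is labelled wild type, and the other group carries the genotype p63 alphaKO. The labels do not describe the allele further, and the strain, the sex and the number of animals behind each sample are not stated there. Each genotype had 1 ChIP library, so there was no replicate spread and no difference between genotypes was tested. The 95% Wilson intervals given in brackets cover counting error only. The matching input libraries were not analysed here.

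p63 is a transcription factor of the p53 family needed for stratified epithelia, and its gene yields isoforms with different ends, of which alpha is the longest tail. Proteins of this family bind as tetramers to a response element built from a pair of adjoining 10-base sites, each with a C and a G at its centre. In keratinocytes p63 is known for binding enhancers far from genes, and for sharing promoter sites with p53 at genes of growth arrest and cell death. A peak near a gene does not show that p63 regulates it.

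Sequences are shown first for sites whose WT summit lay inside a RefSeq promoter window (250 bases before to 50 bases after a gene start, GRCm38.p6, mm10), to show the response element that some of them held at the summit. Such a window held the summit at 238 of the 804 sites. Sequence at the other sites was not analysed here. A response element was counted where 20 bases matched the p63 pattern on either strand with at most 3 mismatches, the central C (position 4) and G (position 7) of both 10-base sites being required. Capitals mark such elements, and the WT summit is base 61 of each stretch. Stretches end at most 30 bases past the start on which the window was built. That start can differ from the gene start used for distances, from which the Gtse1 summit lay 260 bp downstream. Of the 8 such sites with the highest WT fold enrichment, 4 held an element (Gtse1, Cd151, Thyn1 and Trim32) and 4 did not (Fxyd3, Bcl2l11, Phlda3 and Fam83b). Gtse1, Cd151 and Trim32 are printed to show the element, and Fxyd3, the strongest, as an example without one. Cdkn1a, Aen and Ccng1 are p53 pathway genes added after their values were seen.
Gtse1 (chr15:85859891-85859975, + strand): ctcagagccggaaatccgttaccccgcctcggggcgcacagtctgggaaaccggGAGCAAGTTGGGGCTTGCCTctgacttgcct
Cd151 (chr7:141467262-141467382, + strand): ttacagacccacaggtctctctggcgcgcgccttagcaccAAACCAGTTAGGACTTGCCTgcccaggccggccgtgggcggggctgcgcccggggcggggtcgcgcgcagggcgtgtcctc
Trim32 (chr4:65604858-65604978, + strand): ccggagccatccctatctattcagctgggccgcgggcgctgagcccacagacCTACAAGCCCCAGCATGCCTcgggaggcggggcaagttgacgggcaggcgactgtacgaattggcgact
Cdkn1a (chr17:29090872-29090992, + strand): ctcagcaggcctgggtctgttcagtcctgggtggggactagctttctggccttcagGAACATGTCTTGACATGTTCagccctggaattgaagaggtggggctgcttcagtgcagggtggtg
Aen (chr7:78895896-78895956, + strand): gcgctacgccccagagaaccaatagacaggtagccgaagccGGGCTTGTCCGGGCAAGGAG
Ccng1 (chr11:40755407-40755527, − strand): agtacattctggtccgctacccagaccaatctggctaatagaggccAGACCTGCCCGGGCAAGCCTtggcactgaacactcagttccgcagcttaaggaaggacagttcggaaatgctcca
Fxyd3 (chr7:31076674-31076794, − strand): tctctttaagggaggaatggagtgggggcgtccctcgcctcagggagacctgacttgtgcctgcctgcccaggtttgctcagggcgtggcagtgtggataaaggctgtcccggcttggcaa

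The elements of Gtse1, Cdkn1a and Ccng1 each had 1 mismatch to the pattern, that of Cd151 had 2, and those of Trim32 and Aen had 3. Gtse1 encodes a regulator of p53, Cd151 a tetraspanin that partners laminin-binding integrins, and Trim32 a ubiquitin ligase. Cdkn1a encodes the cell cycle inhibitor p21, Ccng1 encodes cyclin G1, and Aen a nuclease induced in apoptosis. Across all 44 sites with an element, its centre lay a median of 7 bp from the WT summit and 4 bp from the alphaKO summit. It was within 50 bp of the WT summit at 43 of the 44 and within 50 bp of the alphaKO summit at 42. At Anxa2, which encodes annexin A2, the element lay 229.5 bp from the WT summit and 115.5 bp from the alphaKO summit, and at Smarcc2, a chromatin remodelling gene, it lay 53.5 bp from the alphaKO summit.

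p63 response elements were more common in the promoter windows of the shared sites than in promoters at large. An element was found in 44 of 238 windows holding a shared summit, or 18.5% (14.1 to 23.9), where 1.35% of all 21263 promoter windows held one. Windows holding the summit of a WT peak with no alphaKO partner had an element in 8 of 409 cases, or 1.96% (0.994 to 3.81). For alphaKO peaks with no WT partner the count was 13 of 72, or 18.1% (10.9 to 28.5). The interval of the WT-only sites lay below those of both other groups. With at most 2 mismatches the shares were 6.72% (4.18 to 10.6) for shared, 0.489% (0.134 to 1.77) for WT-only and 2.78% (0.765 to 9.57) for alphaKO-only sites, beside 0.310% of all promoters, and the alphaKO-only interval then overlapped both others. Of shared sites away from gene ends, 27 had a summit in a promoter window. With at most 3 mismatches, 6 of these 27 held an element, or 22.2% (10.6 to 40.8). That interval took in the 18.5% at gene ends.

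An element was more often present at stronger peaks. In 4 equal groups of the 238 sites by WT fold, from weakest to strongest, it was 1.67%, 11.9%, 23.7% and 36.7% (25.6 to 49.3). Groups by alphaKO fold gave 1.67%, 10.2%, 16.9% and 45.0% (33.1 to 57.5). The weakest group, at WT folds up to 5.18, was no richer in elements than all promoters within its interval (0.295 to 8.86).

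Because WT-only peaks were weaker, the groups were also set side by side at like WT fold. At folds under 5 an element was present in 1.85% of 54 shared windows and in 1.74% of 288 WT-only windows (intervals 0.328 to 9.77 and 0.744 to 3.999). At folds from 5 to 10 the shares were 9.88% of 81 (5.09 to 18.3) and 1.92% of 104 (0.529 to 6.74). At folds from 10 to 20 an element was present in 24 of 77 shared windows and in 1 of 16 WT-only windows, and above 20 in 11 of 26 and in 0 of 1. Few WT-only promoter peaks were strong enough to compare at the upper folds.

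**Figure D1:**
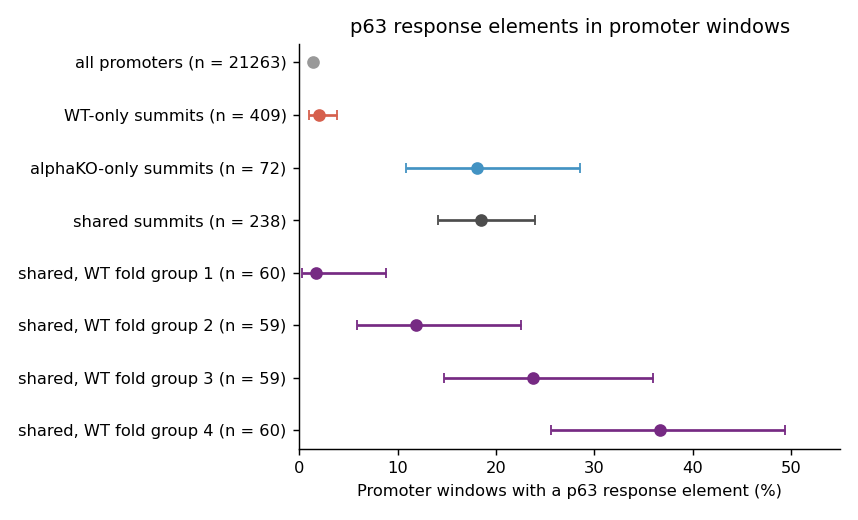
Percentage of promoter windows with a p63 response element (horizontal axis), for all promoters, for windows holding the summit of a WT-only, alphaKO-only or shared peak, and for the shared sites in 4 equal groups by WT fold (group 1 weakest). Points are shares and bars 95% Wilson intervals; the share goes from 1.67% in the weakest to 36.7% in the strongest group, and that of WT-only windows is 1.96%.

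Other short strings were searched on both strands in the same windows, with GGGCGG the core of the box bound by Sp1, TGANTCA the AP-1 type site, GCCNNNGGC the AP-2 type site, and CCAAT and TATAAA the boxes of those names. GGGCGG was present in 73.1% (67.1 to 78.3) of the shared windows, in 82.6% of WT-only windows and in 46.2% of all promoters. TGANTCA was present in 13.4% (9.69 to 18.4) of shared windows, 8.07% of WT-only windows and 6.99% of all promoters. GCCNNNGGC stood at 30.3%, 41.1% and 19.9% in the same order, CCAAT at 30.7%, 27.4% and 38.2%, and TATAAA at 7.14%, 6.11% and 12.6%. The median GC content was 64.7% in shared windows, 68.7% in WT-only windows and 56.3% in all promoters, and the median number of CpG dinucleotides was 24.5, 29 and 13. The part of base composition in the shares of these strings was not tested. The searched strings can overlap one another and the response element.

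The shared sites sat mostly at gene starts. Strand was known for 17492 of the 21887 protein-coding genes, and it told the start from the other end for 659 of the 804 sites. Of these, 572 (86.8%, 84.0 to 89.2) lay within 1 kb of a start and 87 only at the other end. Among WT-only gene-end peaks the share at a start was 95.2% (93.6 to 96.5), above the interval of the shared sites. Around the start, the WT summits had a median position of 4.5 bp downstream (quartiles −175 and 340.5 bp). A position upstream of the start applied to 49.8%, and 51.7% lay within 250 bp of it.

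**Figure D2:**
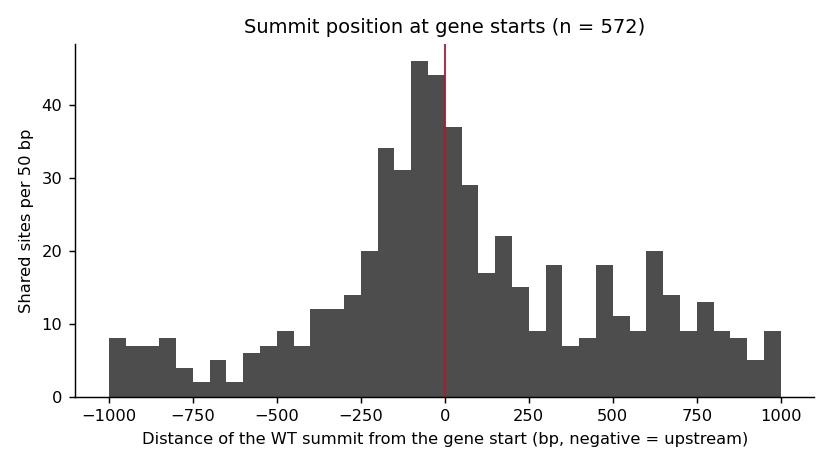
Number of shared sites per 50 bp (vertical axis) by the distance of the WT summit from the gene start in bp (horizontal axis, negative is upstream), for the 572 sites assigned to a start. The counts are highest just upstream of the start, and a lower, flatter shoulder extends through the first 1 kb of the gene.

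Sites at the other end of genes were fewer, with median folds no lower than those at starts. Their median fold was 11.3 (95% interval of the median 8.62 to 13.8) in WT and 19.2 (14.5 to 26.9) in alphaKO, and those at starts had medians of 8.39 (7.92 to 9.01) and 13.02 (11.5 to 14.1). They included some of the strongest alphaKO peaks of the whole set. Ndufa7, a subunit gene of respiratory complex I, had a site 233 bp from its end with a fold of 42.3 in WT and 341 in alphaKO. Wnt7a, which encodes a Wnt ligand, had one 399 bp from its end with 44.7 and 181. Both peaks stood in the top 3% of shared sites in each library, so their place in the order hardly moved.

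Some sites lay at the ends of more than 1 gene. A summit lay within 1 kb of the ends of 2 or more genes at 101 sites (12.6%), and at 54 sites these were the starts of genes on opposite strands. Among the former were the site of Hras and Lrrc56, the site of Bcl2l11 and Acoxl, the site of Cd151 and Cracr2b, and the site of Thyn1 and Acad8. In the other direction, 28 genes had 2 shared sites. They included Sfn, which encodes the cell cycle inhibitor 14-3-3 sigma, with folds of 25.7 (WT) and 72.2 (alphaKO) near its end and 4.12 and 2.67 near its start. Tet3, a DNA demethylase gene, had 33.3 and 36.4 at a site 410 bp from its start and 7.16 and 3.05 at a neighbouring site. Rbbp8, a gene of DNA end resection, had 30.2 and 13.6 at one site and 13.6 and 38.0 at its neighbour. The order of these Rbbp8 sites thus turned between the libraries.

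Among WT peaks at gene ends a smaller share met an alphaKO peak than among other WT peaks. Of 1877 WT gene-end peaks, 804 (42.8%, 40.6 to 45.1) had a partner, where 66.6% of all WT peaks and 71.7% (70.7 to 72.6) of the 8739 peaks away from gene ends did. These peaks were weaker, so the shares were also read within quintiles of the WT list by fold. From the weakest quintile upward, gene-end peaks with a partner made up 15.1%, 35.6%, 71.7%, 85.4% and 97.8%, and other peaks 22.8%, 46.6%, 75.8%, 95.05% and 99.4%. The intervals of both kinds did not meet in quintiles 1, 2 and 4, and they met in quintile 3 (65.7 to 76.9 and 73.8 to 77.7) and quintile 5 (94.4 to 99.1 and 98.99 to 99.7). Folds still varied within a quintile, from 1.06 to 4.70 in the weakest, so strength was matched only roughly. Overlap is part of the rule, so these shares are a description of the lists. The 804 sites were 11.4% (10.7 to 12.1) of the 7066 shared WT peaks.

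**Figure D3:**
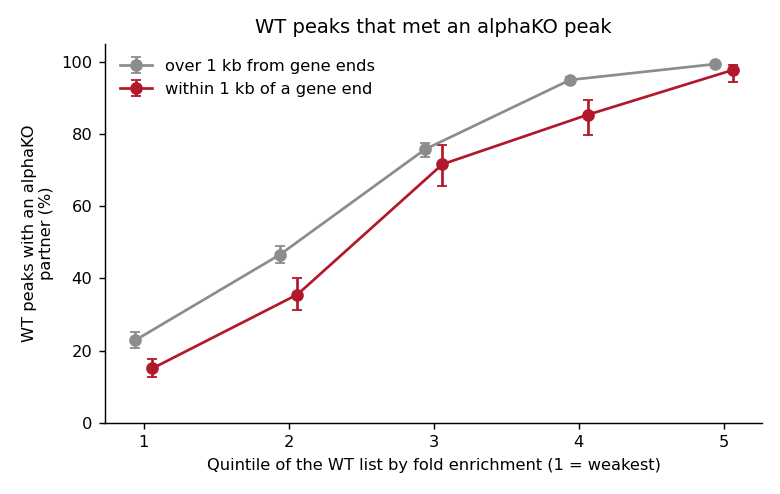
Percentage of WT peaks that met an alphaKO peak (vertical axis) in quintiles of the WT list by fold enrichment (horizontal axis, 1 is weakest), for peaks within 1 kb of a gene end and for all others. Points are shares and bars 95% Wilson intervals; the curves reach 97.8% and 99.4%, and the gene-end curve lies lower in every quintile.

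The shared sites were weaker at gene ends than elsewhere in both libraries. Fold enrichment is the authors' ratio of a summit's pileup to the peak caller's local background, and it is compared only within a list. The median WT fold was 8.77 (quartiles 5.74 and 15.1) at gene ends and 11.8 (8.11 and 18.4) at the 6262 shared sites elsewhere, and the median alphaKO fold was 14.0 (7.52 and 27.4) and 21.9 (12.3 and 37.9). Pileup in WT differed less, with medians of 95 and 102, while in alphaKO it was 118 and 165. The background recovered from pileup and fold was higher at gene ends, at 9.87 against 7.79 in WT and 7.23 against 6.49 in alphaKO. Its part in the lower fold was not tested.

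Folds were lower close to gene ends. Sites within 100 bp of a gene end had a median WT fold of 8.58 and those between 300 bp and 1 kb 9.21, whereas shared sites from 1 to 3 kb stood at 11.9 and those from 10 to 30 kb at 12.2. In alphaKO the same groups had 13.1, 16.2, 21.4 and 22.8. At the 1 kb limit itself, P3h2 and Slc25a28 (1000 bp) and Mgst3 (997 bp) fell just inside, with WT folds of 4.76, 22.2 and 11.99 and alphaKO folds of 4.91, 30.2 and 27.2. Sec22c (1001 bp), Krt5 (1002 bp) and Jade2 (1004 bp) fell just outside, with 40.5, 14.4 and 16.3 in WT and 114, 46.1 and 35.5 in alphaKO. Krt5 encodes a keratin of the basal layer, so the limit alone keeps it out. The smallest overlaps were 97 bp at Adgrb1, 116 bp at Relt and 186 bp at Park7, far above the 1 bp required.

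The strongest site in WT was at Hras, a GTPase gene of the growth factor pathway (chr7:141193090-141194064, summit 670 bp inside the gene). It had a fold of 109 in WT and 177 in alphaKO, with pileups of 1467 and 1129. The background was 12.5 in WT and 5.37 in alphaKO, and whether pileups were scaled between the libraries is not given in the sources used here. Next in WT came Syna (84.0 and 100.2), the predicted gene 9030025P20Rik (75.2 and 177), Fxyd3, a modulator of the sodium pump (65.9 and 73.4), and Gtse1 (57.4 and 150.2). Slc30a5, a zinc transporter gene, had 55.1 and 82.8, Gm3435 52.3 and 112, the lipoprotein receptor gene Lrp1 52.3 and 72.3, and Ppp1r16a 52.1 and 80.8. Bcl2l11, which encodes the death-promoting protein BIM, had 51.4 and 36.5, Cd151 50.4 and 54.7, and Inka1 49.7 and 64.7. In alphaKO the order was led by Ndufa7 and Wnt7a, and further down by Trim32 (44.2 and 125), Tfap4, a transcription factor gene (13.7 and 108), Gm4275 (26.0 and 108), the phospholipid transfer gene Pltp (48.1 and 102) and the kinase gene Mark4 (33.1 and 96.9). The predicted genes 9030025P20Rik and Gm3435 lie side by side on chromosome 17 and each had 2 shared sites of like strength (10.5 and 16.1, and 9.35 and 18.3, for the weaker ones). Whether they share sequence was not analysed here.

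Places in the order of the 7066 shared sites, given as percentiles from 0 to 100 in each library, put both libraries on 1 scale. The gene-end sites had a median percentile of 32.4 in WT and 31.8 in alphaKO. They were in the lowest 20% of both libraries in 26.9% (23.9 to 30.03) of cases, where 12.3% of all shared sites were. They were in the top 10% in 7.46% of cases in WT and 4.60% in alphaKO. A place lower by 25 points or more in alphaKO was held by 86 sites, or 10.7% (8.74 to 13.02), where 11.1% of all shared sites ranked lower by as much. A place higher by 25 points or more was held by 63 sites, or 7.84% (6.17 to 9.90), where 11.9% of all shared sites ranked higher by as much. The first share was thus near that of all shared sites, and the second was below it. With folds of at least 5 in both lists, 14.4% (11.8 to 17.3) were lower and 10.6% (8.46 to 13.3) higher, beside 13.4% and 14.1% (13.3 to 15.0) of all shared sites at that setting, so the intervals of the higher share met. With equal list lengths the shares were 15.1% (12.3 to 18.3) and 9.74% (7.53 to 12.5), beside 14.7% and 14.95%. Ranked by −log10 q in place of fold, 12.9% (10.8 to 15.4) stood lower and 4.48% (3.25 to 6.14) higher, beside 10.7% and 11.1% of all shared sites.

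Widths and pileups of the sites that shifted are given as a description, since they come from the same peaks whose strength defined the shift. The 86 lower sites had a median width of 536.5 bp in WT and 398 bp in alphaKO and median pileups of 144.5 and 98. The 63 higher sites had widths of 372 and 485 bp and pileups of 82 and 178. Background was 8.77 in WT and 8.24 in alphaKO at the lower sites, and 10.9 and 6.30 at the higher ones. Background enters the fold itself, and its part in the shifts was not tested. Of those with strand, 61 of 64 lower sites lay at a gene start (95.3%, 87.1 to 98.4), beside 84.6% (81.3 to 87.4) of sites that stayed within 25 points. A response element was present in 4 of 29 windows at the lower sites, 37 of 194 at those that stayed and 3 of 15 at the higher sites, with intervals that overlap (5.50 to 30.6, 14.2 to 25.2 and 7.05 to 45.2).

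The sites that dropped furthest in the order of shared sites included those of 2 transcription factor genes and a desmosomal gene. Klf3, a Krüppel-like factor gene, went from percentile 78.4 in WT to 4.08 in alphaKO, with folds of 19.5 and 4.74 and pileups of 216 and 52 (chr5:64802909-64803826), and its summits lay 149 bp apart. Grhl2, a grainyhead-like factor gene of epithelial barriers, went from 84.3 to 15.6 (folds 22.6 and 8.86, pileups 233 and 98, chr15:37233017-37233552). Upk2, a uroplakin gene, went from 77.0 to 8.53 and Tnfaip3, which encodes the NF-κB inhibitor A20, from 72.3 to 6.30. Dsc3, a desmosomal cadherin gene, went from 87.0 to 23.2 with folds of 24.9 and 11.2. The 8 greatest drops also took in Urah (82.7 to 16.7), Lrrfip1 (76.1 to 13.3) and Rbbp8 (91.6 to 30.8). These 8 sites were picked for their shift, which is therefore a description.

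The greatest shifts upward were smaller, from 60.5 points at Coro7 to 40.6 at Hira. The greatest drops had run from −74.3 points at Klf3 to −60.8 at Rbbp8. Coro7, a coronin gene, went from percentile 10.2 in WT to 70.7 in alphaKO, with folds of 5.54 and 32.9 and pileups of 65 and 239 (chr16:4679664-4680006). It held a response element with 3 mismatches, 0.5 bp from the alphaKO summit and 13.5 bp from the WT summit. Sp1, which encodes a general promoter-binding factor, went from 23.4 to 76.5 (7.55 and 38.2). Kctd11 went from 7.39 to 60.7, Zc3h3 from 18.5 to 71.5, and Hmgcs1, a cholesterol synthesis gene, from 16.4 to 67.5. Chmp7, a membrane remodelling gene, went from 51.3 to 97.1 (folds 11.7 and 92.8), Pdcd7 from 49.8 to 94.5, and Hira, a histone chaperone gene, from 9.64 to 50.2. With 1 library per genotype, how far such places move between libraries of the same genotype is not known.

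**Figure D4:**
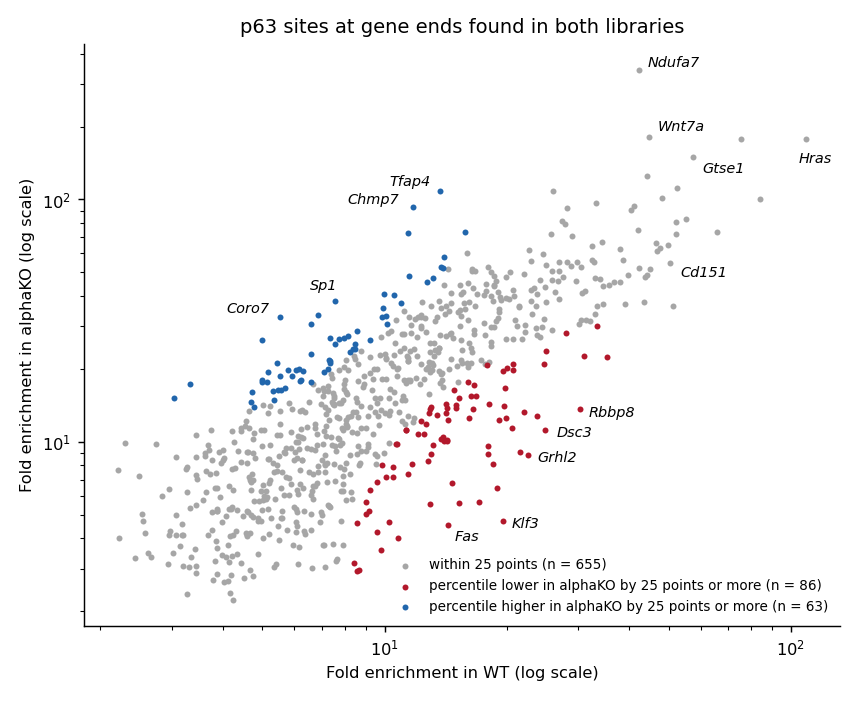
Fold enrichment in WT (horizontal axis, log scale) against alphaKO (vertical axis, log scale) at the 804 shared gene-end sites, 1 point per site. Sites whose percentile among shared sites was lower by 25 points or more in alphaKO (86) lie in red along the lower edge and those higher by as much (63) in blue along the upper left edge, while 655 sites lie between.

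The position of the peaks within a site was close in both libraries. Summits lay a median of 9 bp apart, beside 8 bp for all shared sites, and 85.6% (82.97 to 87.8) were within 50 bp, beside 91.7% of all shared sites. Summits over 200 bp apart made up 6.22% (4.75 to 8.11) at gene ends and 3.28% among all shared sites. The alphaKO summit too lay within 1 kb of a gene end at 797 of the 804 sites, and 798 sites had an alphaKO partner that no other WT peak met.

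Peaks at some gene ends were wide in WT. A WT width of 1000 bp or more was found at 48 sites, or 5.97% (4.53 to 7.83), beside 2.22% (1.88 to 2.61) of shared sites elsewhere, and in alphaKO at 23 sites (2.86%, 1.91 to 4.26) beside 2.24%. The 4 widest lay at the immediate early genes Jun (5128 bp in WT, 856 bp in alphaKO), Junb (2941 and 607 bp) and Egr1, which had 2 such sites (2730 and 333 bp, 2264 and 537 bp). Pkp3, a desmosomal plakophilin gene, was wide in both libraries (2061 and 1789 bp). The folds of the 4 early gene sites were 6.62 in WT and 3.02 in alphaKO for Jun, 6.08 and 6.33 for Junb, 7.53 and 15.4 for the wider Egr1 site and 5.35 and 3.05 for the other. These 4 WT folds were below the WT median of 8.77, and the alphaKO fold of the wider Egr1 site was above the alphaKO median of 14.0. Summits lay 2791 bp apart at Jun, 134 bp at Junb, and 1095 and 156 bp at the Egr1 sites.

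The sites lay at ends of 880 genes, 4.02% of all protein-coding genes, and the counts of the gene lists are read against that share. No list was tested, and the lists were written with earlier results of these data known, so their shares are a description. Lists of p53 pathway targets and of epidermal transcription factors had the highest shares, at 13 of 29 (44.8%, 28.4 to 62.5) and 13 of 35 (37.1%, 23.2 to 53.7). Lists of the basal layer with its anchoring and of cell junctions had 6 of 20 each (30%, 14.5 to 51.9). The count was 4 of 23 for suprabasal and cornified envelope genes, 3 of 15 for barrier lipid genes, 4 of 22 for innate defence genes, and 4 of 26 for each of the lists of developmental signalling and of growth factor signalling. Ribosomal proteins (2 of 30), mitochondrial respiration (2 of 26), actin genes (2 of 24) and chromatin regulators (2 of 20) stood lower. Hair follicle genes had 1 of 20 and cell cycle and DNA replication genes 0 of 25. The interval of the latter, up to 13.3%, took in the 4.02% of all genes. Mcm7 and Ckap2, which are not on that list, had sites (given below). None of the 53 marker genes of melanocytes, immune cells, dermal fibroblasts, endothelium, Merkel cells and neurons had a shared gene-end site. These lists were short, with intervals reaching up to between 27.8% and 39.0%. All of them took in the 4.02% of all genes, so no lack of sites is read from them.

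Targets of the p53 pathway carried sites over a wide range of folds. Mdm2, whose product degrades p53, had 46.5 in WT and 66.1 in alphaKO, and Phlda3, an inhibitor of Akt, 38.7 and 56.2. The death gene Pmaip1, which encodes NOXA, had 26.9 and 39.0. Eda2r, the ectodysplasin A2 receptor gene, had 16.5 and 43.3, Cdkn1a 14.4 and 34.7, and Trp53inp1 10.6 and 22.9. Weaker sites lay at Aen (7.26 and 13.6), Btg2 (6.69 and 7.40), Ccng1 (5.83 and 14.5) and Gadd45a (5.70 and 8.99). The median of the 13 genes was 14.4 in WT and 22.9 in alphaKO, beside 8.77 and 14.0 over all genes with a site. Fas, which encodes a death receptor, and Perp, a p53 target that is also part of desmosomes, went from percentile 63.5 to 3.70 (folds 14.3 and 4.56) and from 85.6 to 28.4 (23.8 and 12.8). These 2 of the 13 were lower by 25 points or more and none was higher, beside 11.1% and 11.9% of all shared sites. At Perp the WT and alphaKO summits lay 798 bp apart, so its folds were read at different positions.

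Genes of cell junctions included several that ranked lower in alphaKO, and Dsg3, which ranked higher. Of the 6 with a site, 3 were lower by 25 points or more in alphaKO, namely Dsc3, Perp and Cldn4, a claudin gene (percentile 78.7 to 32.0, folds 19.7 and 14.0). The Perp summits lay 798 bp apart, so its WT and alphaKO folds were read at different positions. Dsg3, the gene of desmoglein 3, was higher by 25 points or more, where 11.9% of all shared sites were. It went from 62.4 to 90.0 with folds of 14.0 and 57.7. Pkp3 kept its place (42.1 and 74.6), and Ctnna1, the alpha-catenin gene, had 7.80 and 4.72. With so few genes, the 3 of 6 beside 11.1% of all shared sites is a description of these libraries.

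Genes that anchor the basal layer had sites from strong to weak. Those given here lay within 25 points of their WT percentile, as did 77.0% of all shared sites: Cd151 (above), Itgb4, which encodes an integrin of hemidesmosomes (21.0 in WT and 32.0 in alphaKO), Col17a1, the gene of collagen XVII (15.5 and 21.7), Krt15 (12.04 and 22.7) and Krt14 (5.75 and 4.34). The Krt14 site lay 166 bp upstream of the gene start (chr11:100207237-100207849) and was among the weak shared sites, at percentiles 11.5 and 3.35. Among suprabasal genes, Casp14, a protease gene of cornification, had 27.8 and 79.1 and the envoplakin gene Evpl 14.1 and 14.3, the latter with a percentile that went from 62.8 to 32.8. Ppl, the gene of periplakin, had 5.58 and 5.21. Of barrier lipid genes, the lipid transporter gene Abca12 went from percentile 39.9 to 73.7 (9.89 and 35.6), and Gltp, a glycolipid transfer gene, had 3.15 and 3.73.

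**Figure D5:**
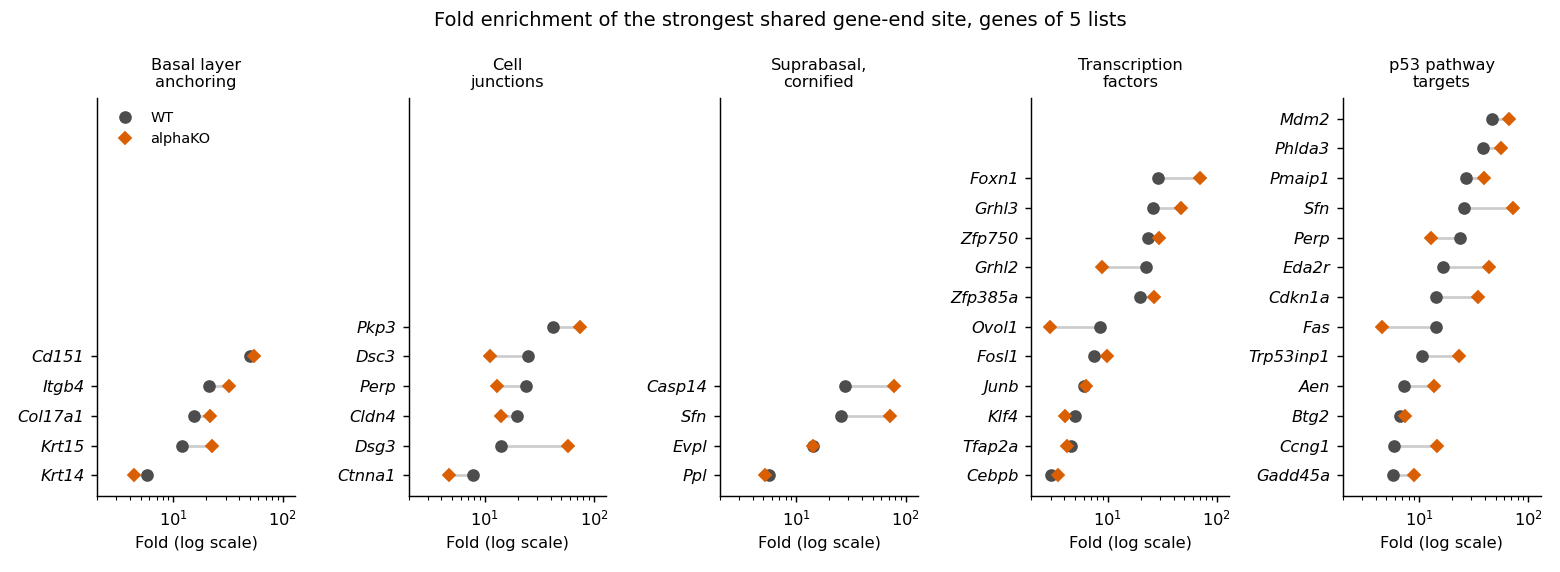
Fold enrichment (horizontal axes, log scale) in WT (circles) and alphaKO (diamonds) of the strongest shared gene-end site of the genes shown from 5 gene lists, with a line joining the values of a gene. Values run from 3.01 (Cebpb) to 50.4 (Cd151) in WT and from 2.93 (Ovol1) to 79.1 (Casp14) in alphaKO; folds are comparable within a library only, so the length of a line is not a measure of change.

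Of the 13 transcription factor genes, Foxn1 (29.0 in WT and 70.6 in alphaKO), Grhl3 (25.8 and 46.6), Zfp750 (23.5 and 29.4) and Grhl2 had the highest WT folds. Ovol1 (percentile 30.6 to 0.764, folds 8.55 and 2.93) and Grhl2 were among those lower by 25 points or more. None of the 13 was higher by as much, where 11.1% of all shared sites ranked lower and 11.9% higher. With so few genes, this is a description of these libraries. Fosl1 (7.41 and 9.75), Junb, Klf4 (5.02 and 4.03), Tfap2a (4.56 and 4.23) and Cebpb (3.01 and 3.48) had weak sites in both libraries. In the signalling lists, Wnt10a went from percentile 41.0 to 71.1 (10.1 and 33.2), Fzd6 had 22.1 and 49.1, Wnt4 17.5 and 31.1, and Edaradd 11.6 and 28.2. Spry2, a feedback inhibitor of receptor signalling, went from 63.3 to 31.2 (14.2 and 13.8), and Dusp6 and Met had weak sites (6.54 and 14.7, 6.76 and 6.57). Of innate defence genes besides Tnfaip3, Cxcl1 had 9.61 and 14.5, Nfkbia 9.09 and 9.85, and Icam1 7.98 and 17.9.

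Some of the 880 genes had further p63 peaks. Summits in the gene body or within 10 kb of it were counted, leaving out that gene's own gene-end sites described here. Another shared site was present at 284 genes, a WT-only peak at 193 and an alphaKO-only peak at 243. At 385 genes (43.75%, 40.5 to 47.0) there was no such further peak of either library. The same counts over all protein-coding genes were not made, so no excess or lack is read from them.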

How the data were processed

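Sites and gene lists were chosen with earlier results of these data known. The submitters' processing notes name Bowtie2, MACS2 2.1.1.20160309 and mm10; options, duplicate handling and control libraries were not given in those sources. The deposited lists hold, per the file headers, peak positions, summit pileup as a coverage signal, the −log10 p-value and q-value, and the fold enrichment as a ratio. Lists came from single libraries and carry no read totals, so depth is unknown. Intervals cover counting error only, since the lists give no molecule counts. Background was recomputed from pileup and fold, with 1 added to both pileup and background.

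Gene ends, and strand through the promoter windows, came from RefSeq tables of GRCm38.p6. Percentiles rank the fold among the 7066 shared sites of each list. No model was fitted. Genes were named by a rule: the highest folds, the greatest shifts in percentile, up to 4 genes of each list by WT fold, genes with 2 sites, sites at ends of 2 or more genes, and sites at the 1 kb limit; other listed genes, and the widest sites, were named after their values were seen, and a few listed genes are not reported. Sequences were those of the 8 sites with the highest WT fold in a window, of which 4 are printed, plus the additions. The 21 gene lists held 411 distinct genes, and 2 entries had no match. Alternatives were other definitions of overlap, thresholds, list lengths, distances, gene sets, ranking and mismatches. Counting code was tested on simulated data. Software was pandas 2.3.3 and NumPy 2.4.6 in Python 3.11.15, with matplotlib 3.10.9 for plots and SciPy 1.17.1 for intervals.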

Additional observations from a re-analysis of the deposited data

How the results depend on the processing

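No paired analysis was possible because each genotype had 1 ChIP library, and no replicate could be left out. Of 114 comparisons of 11 results with 13 alternatives, 79 left the value inside its interval, or a count less than 1.5 times apart, and 35 did not; the cause was not tested. The share of WT gene-end peaks with an alphaKO partner became 37.6% when at least 50% of both peaks had to overlap, 38.7% with summits within 100 bp, 52.6% at −log10 q of at least 10, 62.8% at a fold of at least 5, 29.0% with equal list lengths, 38.8% with gene ends within 0.5 kb and 48.7% within 2 kb. Over all WT peaks, 7066 of 10616 had a partner in the main setting. Under the first 5 of these alternatives, 6689 of 10616, 6719 of 10616, 6738 of 9315, 6390 of 8173 and 5779 of 10616 did. The share of shared peaks at gene ends became 10.6% with 50% overlap, 10.6% at the stricter q, 9.70% at the stricter fold, 9.41% with equal lengths, 7.93% within 0.5 kb and 16.95% within 2 kb. The median WT fold became 9.76 with summits within 100 bp, 10.01 at the stricter q, 11.3 at the stricter fold, 12.3 with equal lengths and 10.1 within 2 kb. The median alphaKO fold became 15.3, 16.1, 18.9 and 21.1 under the first 4 of these, 12.9 within 0.5 kb and 16.4 within 2 kb. Sites lower by 25 points became 14.4% at the stricter fold and 15.1% with equal lengths. Sites higher by 25 points became 10.6% at the stricter fold and 4.48% when ranked by −log10 q. The median summit distance became 7 bp at the stricter fold and 6 bp with equal lengths. The share with a response element became 24.9% at the stricter fold, 26.7% with equal lengths and 6.72% with at most 2 mismatches, where 0.310% of all promoters held one. The share at a gene start became 89.5% with 0.5 kb and 82.0% with 2 kb as the limit for starts too.

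Exclusion of peaks with a background above 50 and use of the nearest promoter window alone were added after the data were seen. Neither moved a result beyond those limits. None of the 804 sites had a background above 50 in either list, so the exclusion could not remove any of them. Its comparisons are nonetheless among the 79 that stayed. Equal list lengths cut the weakest alphaKO peaks, so fewer sites remain by construction. What depth limits is unknown, as the lists give no read totals. Sequence was read at 238 sites, all near starts, and does not speak for the others.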

Other observations

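Some shared gene-end sites lay beside microRNA hairpins of RefSeq. The site at Mcm7, which encodes a subunit of the replicative helicase and hosts a cluster of microRNAs in an intron, reached a fold of 13.3 in WT and 25.7 in alphaKO (chr5:138165109-138165447). Its WT summit lay 61 bp from the hairpin of Mir25, 263 bp from that of Mir93 and 477 bp from that of Mir106b, and its percentile moved by 0.467 points between the libraries. Hairpins of Mir8105, Mir8098 and Mir8120 lay 345, 380 and 159 bp from the summits at Smarcc2, Wdfy2 and Lekr1, with WT folds of 5.97, 25.02 and 3.18.

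Several of the 44 elements lay in promoters of genes not described above. Ckap2, a gene of the mitotic spindle, stood at 28.1 in WT and 55.5 in alphaKO with an element of 2 mismatches, and Rps19, of the ribosomal protein list, 24.6 and 32.3 with 2 mismatches. Alox12, a lipoxygenase gene, had 16.7 and 36.3 with 2 mismatches, and Gpx1, which encodes a glutathione peroxidase, 16.0 and 17.7 with 3. Bbs2, a gene of the primary cilium, had 11.5 and 48.3 with 2 mismatches. Each of these elements was centred within 50 bp of both summits. These genes were chosen after their values were seen.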
